A study of Mus musculus with 10 samples.

Results

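Motile cilia genes were followed in whole mouse embryos at embryonic day 7.5 (E7.5). The group held 69 of the 20006 genes listed in the deposited table and was chosen by symbol: the axonemal dynein heavy chains (Dnah), dynein intermediate chains (Dnaic), dynein assembly factors (Dnaaf), tektins (Tekt), radial spoke proteins (Rsph), cilia and flagella associated proteins (Cfap), the Rfx transcription factors, the Drc genes, Spag6 and Spag16, and 11 single genes led by Foxj1. RNA-seq had been run on 5 embryos mutant for both Axin1 and Axin2 (labelled DKO) and 5 wild type (WT) embryos, each library from 1 whole embryo. Axin1 and Axin2 are scaffold proteins on which β-catenin is tagged for breakdown, and the series asks how they shape WNT signalling and mesoderm formation. The sources used here do not give allele structure, the tissue in which the alleles act, strain or litter.

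Motile cilia beat because dynein arms slide the microtubule doublets of their core, the axoneme, past one another, while radial spokes, the nexin-dynein regulatory complex and, where present, a central pair of microtubules shape the stroke. Foxj1 is the forkhead transcription factor that switches on the motile cilia programme. Factors of the Rfx family bind a promoter element called the X-box in genes of motile and immotile cilia. At this stage of mouse development the motile cilia are chiefly those of the node, a small pit at the front end of the primitive streak, where they drive the leftward flow that sets the left-right axis.

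Libraries held 20744547 to 28505209 reads. Axin1 itself had 1319, 1134, 1108, 2336 and 819.5 scaled counts in mutants 1 to 5, against 3314, 3764, 3509, 3325 and 3843 in WT 1 to 5. The highest mutant value belonged to the library labelled mutant 4, which also stood apart from the other mutants on the second principal component. Its score there was −91.3, against −9.69 to 29.3 in the other mutants and −4.45 to 22.5 in WT. The first component held 47.7% of the variance. On that one this library scored −16.6, against −78.4 to −62.35 in the other mutants and 51.8 to 73.3 in WT. Axin2, itself a WNT target, averaged 448 ± 114 scaled counts in mutants and 441 ± 43.1 in WT (adjusted p = 0.981). Whether its reads check the label depends on the unknown allele. Values below are scaled counts, that is, read counts divided by 1 size factor per embryo. Log2 fold changes are mutant over WT on log2(scaled count + 1). A signed value given before an adjusted p is this log2 fold change. For genes with few reads it can be smaller or larger in size than an estimate from read counts. Tekt4 stood at −4.77 here and at −6.87 with DESeq2, while Drc1 stood at −3.10 here and at −2.63 with DESeq2. Replicates are embryos of which nothing says whether they share a litter, so p-values measure the spread between these 10 embryos.

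Of the 69 genes, 55 had a mean of at least 10 scaled counts over the 10 embryos and were tested. Mutants had lower expression of 29 of the 55 at an adjusted p under 0.05 and higher expression of 2, against a background of 13.8% of all 15429 tested genes called lower and 11.4% called higher. The median log2 fold change of the 55 was −1.56, beside 0.01 for all tested genes, and 45 of the 55 lay below 0, beside 48.8% of all tested genes. Without the library labelled mutant 4 the median was −1.69 and the backgrounds were 16% lower and 13.4% higher. Of the 31 calls, 28 were kept without that library. Those lost were Cfap57, Dnah11 and Dnah6, and those gained were Ccdc39, Cfap54 and Cfap61, so that the counts were again 29 lower and 2 higher. The filter bears on these counts: 16 of the 55 reached it only through their WT level, 14 of them called lower. Among the 39 with at least 10 scaled counts in both genotypes 15 were lower and 2 higher. In a fit of every listed gene without a filter, 32 of the 69 were lower, 2 higher and 35 not called, against backgrounds of 11.3% lower and 8.72% higher. In a whole embryo, fewer ciliated cells and less RNA per ciliated cell cannot be told apart.

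**Figure D1:**
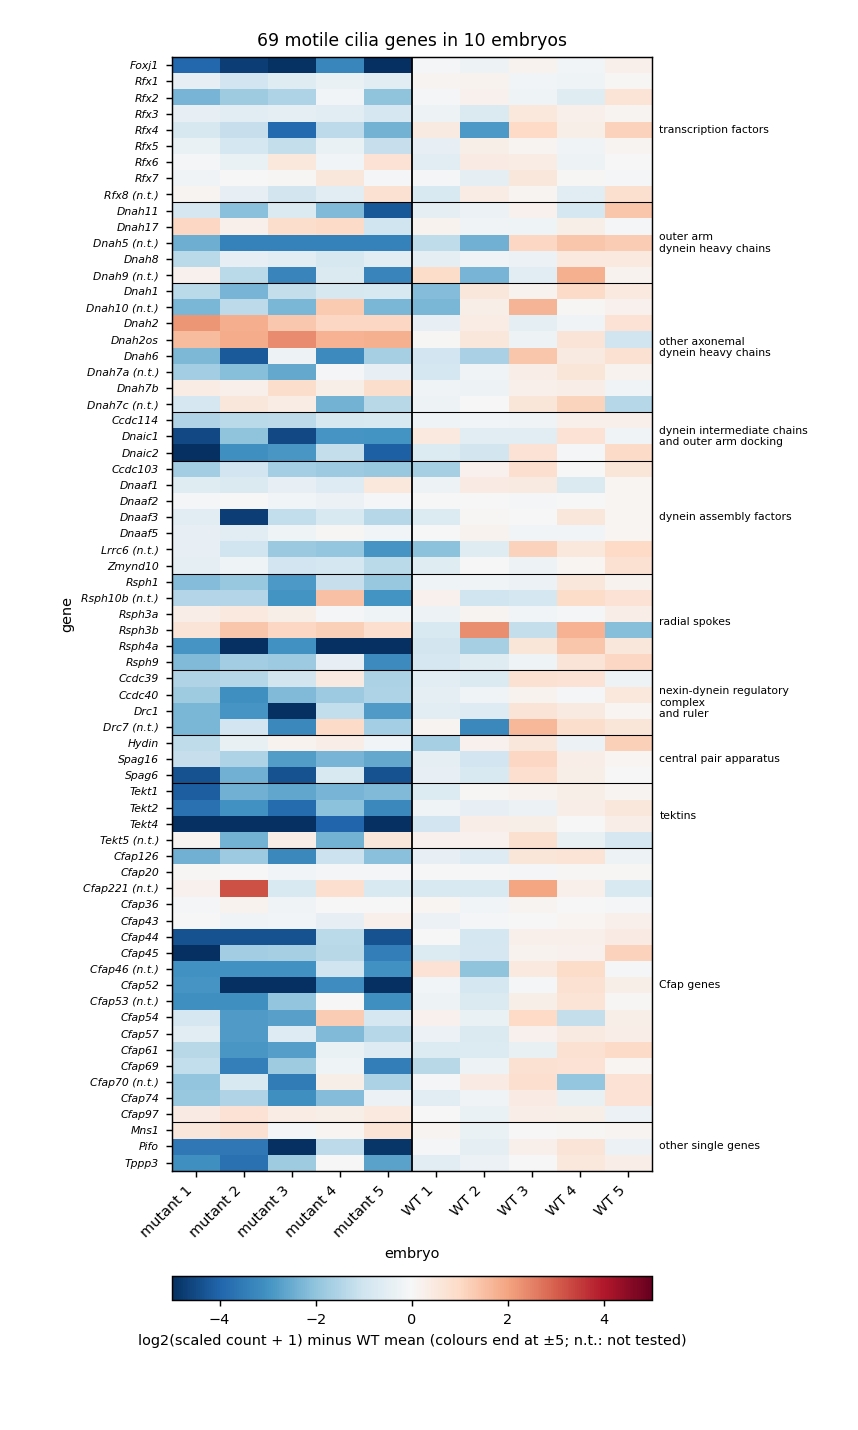
Each row is 1 of the 69 motile cilia genes, grouped by role, and each column 1 embryo (mutants left, WT right). Colour gives log2(scaled count + 1) minus the WT mean of that gene, with colours ending at ±5. Blue fills most rows of the mutant side in the tektin, intermediate chain and central pair groups, while several assembly factor, Cfap and Rfx genes are pale throughout.

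The promoters of the group are shown here because the same short element recurs in them. RefSeq windows on build GRCm38.p6, running from 250 bases before to 50 bases after each annotated start, were on hand for 58 of the 69 genes. The X-box was searched on both strands as its arms GTNNCC and GNAAC with 3 bases of any kind between them. Arms spaced otherwise were not counted, so a gene without a match may still hold the element in another spacing. Of the 58 genes, 13 (22.4%) held the X-box in this spacing, beside 673 of 27025 genes in all (2.49%). It was also present in 7 of 47 further motile cilia genes (14.9%) and in 3 of 25 genes of intraflagellar transport (12%), both from lists described below. Among genes lower in mutants it was present in 7 of 25 (28%), and among tested genes that were not called in 6 of 21 (28.6%). The forkhead letters GTAAACA were present in 4 of 58 (6.9%, beside 4.05% of all genes) and GCAAACA in 5 of 58 (8.62%, beside 5.76%). In the 25 genes lower in mutants, GTAAACA was in none and GCAAACA in 4 (16%). In the 21 tested genes that were not called, GTAAACA was in 3 (14.3%) and GCAAACA in none. A match describes the letters only. The X-box matches upstream of genes lower in mutants are given first, 5′ to 3′ on the strand of the gene, with up to 10 bases on each side and the match in capitals. The match of the seventh gene, Spag6, does not lie wholly before the start and is not printed. Pifo holds a pair of matches.
Cfap44: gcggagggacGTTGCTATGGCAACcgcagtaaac
Cfap45: tagttcttggGTTGCTATGGTAACgcgtc
Spag16: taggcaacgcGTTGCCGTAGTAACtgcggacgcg
Ccdc114: ttggccccttGTCTCCCCAGTAACc
Pifo, farther from the start: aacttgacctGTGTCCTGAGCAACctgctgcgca
Pifo, nearer to the start: ccgcggttccGTTCCCTTGGCAACgtagta
Tekt4: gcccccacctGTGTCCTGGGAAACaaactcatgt

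Genes that were tested and not called carried the same element, shown for comparison. The matches of Cfap61 and Zmynd10 do not lie wholly before the start and are not printed.
Dnaaf2: cctcccaggcGTTACTATGGCAACaaa
Dnaaf5: actagcgccgGTTCCCTTGGAGACaggc
Hydin: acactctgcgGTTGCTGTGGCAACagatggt
Dnah17: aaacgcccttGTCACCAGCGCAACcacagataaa

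The 250 upstream bases that hold these matches lie at chr16:44394549-44394798 on the plus strand for Cfap44 and at chr12:69198430-69198679 on the minus strand for Dnaaf2. They are printed whole as the pair with like elements at like distances, 14 and 4 bases before the start, and unlike values in mutants. The match GTTGCTATGGCAAC of Cfap44 and GTTACTATGGCAAC of Dnaaf2 both read as an X-box on the opposite strand.
Cfap44 upstream: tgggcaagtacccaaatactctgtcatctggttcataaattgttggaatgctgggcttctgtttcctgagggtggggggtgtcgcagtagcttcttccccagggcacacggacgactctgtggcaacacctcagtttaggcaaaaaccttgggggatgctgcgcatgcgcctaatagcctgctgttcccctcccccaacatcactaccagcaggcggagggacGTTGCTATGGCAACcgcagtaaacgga
Dnaaf2 upstream: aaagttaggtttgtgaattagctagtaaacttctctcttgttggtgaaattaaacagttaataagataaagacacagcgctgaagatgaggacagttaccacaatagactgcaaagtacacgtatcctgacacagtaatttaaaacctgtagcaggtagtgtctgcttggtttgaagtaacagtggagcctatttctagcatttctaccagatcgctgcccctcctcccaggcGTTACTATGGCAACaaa
The windows of the other genes listed here are chr1:172520880-172521129 (plus strand) for Cfap45, chr1:69826720-69826969 (plus) for Spag16, chr7:45923965-45924214 (plus) for Ccdc114, chr3:106001498-106001747 (minus) for Pifo, chr17:25471340-25471589 (plus) for Tekt4, chr5:139149985-139150234 (plus) for Dnaaf5, chr8:110266727-110266976 (plus) for Hydin and chr11:118129220-118129469 (minus) for Dnah17.

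Among the transcription factors, 4 of 8 tested were lower in mutants and none was higher. Foxj1 (chr11:116330704-116335399, minus strand, GRCm38) had 41.5, 23.9, 20.2, 67.7 and 12.35 scaled counts in mutants 1 to 5, against 632, 548.5, 736, 600 and 774.5 in WT 1 to 5. Every mutant lay far below every WT embryo, and the mutant mean was 5.04% of the WT mean (log2 fold change −4.49 ± 0.37 SE, adjusted p = 1.36e-05; exact permutation p = 0.00794, the smallest that 5 against 5 embryos can give). Per kilobase of exon, Foxj1 stood at 12.6 in mutants and 251 in WT. The library labelled mutant 4 had the highest value among the mutants, and without it the log2 fold change of Foxj1 was −4.80, adjusted p = 1.02e-06.

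Rfx2, which takes part in ciliogenesis, had 12.3, 18.2, 21.3, 58.6 and 15.2 scaled counts in mutants 1 to 5, against 62.7, 74.5, 55.6, 42.4 and 103 in WT 1 to 5. It was lower in mutants (log2 fold change −1.56 ± 0.41 SE, adjusted p = 0.0161), with the library labelled mutant 4 inside the WT range and the other mutants below it. Rfx1 was lower by less, at 477.5, 326.5, 420, 498 and 422 scaled counts in mutants 1 to 5, against 695.5, 712.5, 575, 547 and 651.5 in WT 1 to 5, and the groups did not overlap (log2 fold change −0.58 ± 0.14 SE, adjusted p = 0.011). Rfx3, which is needed for node cilia in the mouse, had 238, 216, 224, 216 and 175 scaled counts in mutants 1 to 5, against 265, 191, 448.5, 378 and 346 in WT 1 to 5. WT 2 lay among the mutants and the difference did not pass (log2 fold change −0.55 ± 0.22 SE, adjusted p = 0.0803). Rfx5, known for MHC class II genes rather than cilia, was lower with overlapping groups (82.9 to 152 scaled counts in mutants and 142 to 232.5 in WT; log2 fold change −0.77 ± 0.23 SE, adjusted p = 0.0286). That call was lost on leaving out any 1 of WT 2, WT 3, WT 5 or mutants 2, 3 and 5, and 1471 exon bases of Rfx5 overlap an antisense gene. Rfx4 did not pass (0 to 7.55 scaled counts in mutants and 1.01 to 31.9 in WT; −1.89, adjusted p = 0.114). Neither did Rfx6, a factor of the endocrine pancreas (18.2 to 38.9 scaled counts in mutants and 15.9 to 31.2 in WT; 0.13, adjusted p = 0.804), nor Rfx7 (638 to 1065 scaled counts in mutants and 515 to 1061 in WT; 0.08, adjusted p = 0.785).

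**Figure D2:**
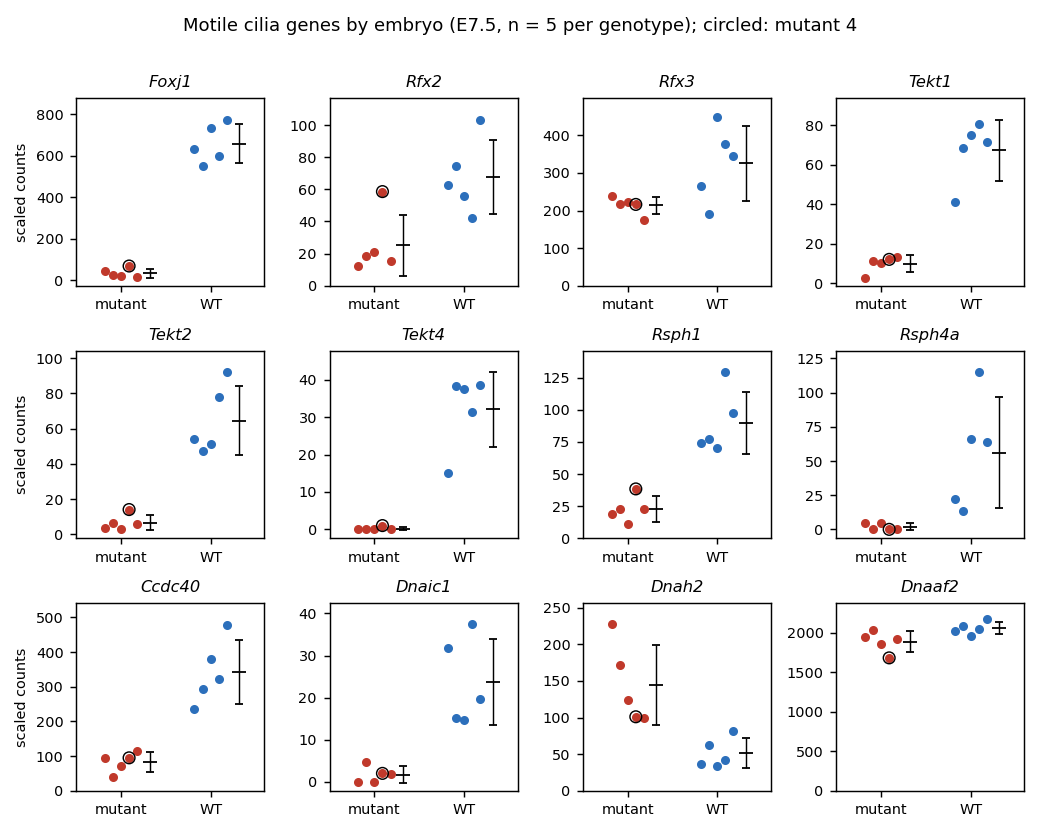
Scaled counts (linear axis) of 12 motile cilia genes in single embryos, mutants left and WT right, with the mean ± SD (n = 5 each) beside the points and the library labelled mutant 4 circled. Foxj1, the tektins Tekt1, Tekt2 and Tekt4 and the spoke genes Rsph1 and Rsph4a show no overlap between genotypes, Dnah2 is higher in mutants, and Dnaaf2 lies at a similar level in both.

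The intermediate chains and docking factor of the outer dynein arm, the row of motors that powers most of the beat, were lower in 3 of 3 cases. Of these, Dnaic1 and Dnaic2 reached the filter only through their WT level. Dnaic1 had 0, 4.79, 0, 2.02 and 1.9 scaled counts in mutants 1 to 5, against 31.8, 15.1, 14.8, 37.4 and 19.7 in WT 1 to 5. Mutants 1 and 3 had no read of it, and every mutant lay below every WT embryo (log2 fold change −3.40 ± 0.58 SE, adjusted p = 0.00166). Dnaic2 had 0, 2.87, 3.36, 13.1 and 0.95 scaled counts in mutants 1 to 5, against 19.2, 16.1, 52.2, 30.3 and 62.9 in WT 1 to 5. Its groups did not overlap either, with the library labelled mutant 4 closest to WT (log2 fold change −3.25 ± 0.68 SE, adjusted p = 0.00505). Ccdc114, which docks the outer arm to the doublet, had 61.3, 68.9, 70.6, 102 and 103.5 scaled counts in mutants 1 to 5, against 153, 163, 158, 213 and 214 in WT 1 to 5. Its level in mutants was 45.1% of WT, a smaller loss than that of the intermediate chains, again without overlap (log2 fold change −1.16 ± 0.21 SE, adjusted p = 0.00242).

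The heavy chains, the motor subunits themselves, had low levels for their length: per kilobase of exon the 12 listed heavy chain genes had at most 9.69 scaled counts in mutants and 3.56 in WT. Of the 5 outer arm heavy chains, 3 were tested. Dnah11, whose loss randomises the left-right axis in mice, had 19.8, 7.66, 21.3, 7.075 and 0.95 scaled counts in mutants 1 to 5, against 25.9, 29.2, 42, 19.2 and 95.75 in WT 1 to 5. It was lower with overlap (log2 fold change −2.02 ± 0.66 SE, adjusted p = 0.0419). The call was lost in 9 of 19 alternatives, among them the edgeR test and leaving out any 1 of WT 1, WT 2, WT 3, WT 5 or mutants 2, 4 and 5. Dnah11 shares 642 exon bases with Cdca7l on the opposite strand. Dnah8 (16 to 31.6 scaled counts in mutants and 30.1 to 60.1 in WT; −0.73, adjusted p = 0.103) and Dnah17 (7.6 to 34 scaled counts in mutants and 13.6 to 20.2 in WT; 0.42, adjusted p = 0.485) did not pass. Dnah5, a main outer arm heavy chain of node and airway cilia, fell under the filter with 1 read over the 5 mutants and 75 over the 5 WT. The WT reads exceeded the mutant read by 76.8-fold (95% interval 13.4 to 3070, counting error only). In the fit without a filter Dnah5 was lower in mutants (−3.20 ± 0.73 SE, adjusted p = 0.00879), with no overlap. Dnah9, also under the filter, had 10.4, 2.87, 0, 5.05 and 0 scaled counts in mutants 1 to 5, against 17.55, 1.01, 5.68, 33.3 and 10.3 in WT 1 to 5, and did not pass in that fit (−1.70 ± 0.85 SE, adjusted p = 0.187).

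The other axonemal heavy chains belong mainly to inner arms. Of 5 tested genes with such symbols, 1 was lower and 2 were higher. The 5 include Dnah2os, an antisense transcript and not a heavy chain, which was 1 of the 2. The lower gene, Dnah6, reached the filter only through its WT level. Dnah6 was lower with overlap (0 to 14.6 scaled counts in mutants and 5.03 to 46.6 in WT; log2 fold change −2.32 ± 0.79 SE, adjusted p = 0.048). This was the least stable of the 31 calls, lost in 10 of 19 alternatives, among them a pseudocount of 0.5, edgeR and the omission of any 1 of WT 1, WT 3, WT 4, WT 5 or mutants 1, 2, 4 and 5. Dnah2 went the other way, with 227, 172, 124, 101 and 99.7 scaled counts in mutants 1 to 5, against 36.8, 62.4, 34.1, 42.4 and 81.7 in WT 1 to 5. All mutants lay above all WT embryos (log2 fold change 1.48 ± 0.31 SE, adjusted p = 0.0055). Its antisense transcript Dnah2os, caught by the symbol rule, had 67.95, 81.4, 118, 74.8 and 76.9 scaled counts in mutants 1 to 5, against 22.6, 33.2, 18.2, 34.35 and 10.3 in WT 1 to 5, also without overlap (log2 fold change 1.87 ± 0.34 SE, adjusted p = 0.00229). The pair share 312 exon bases on opposite strands, and the library preparation keeps no strand, so part of the reads cannot be told apart. Backgrounds for genes whose groups do not overlap were 9.97% with mutants lower and 7.14% with mutants higher. Against these, 18 and 2 of the 55 tested genes did not overlap. Dnah1 (6.7 to 21.8 scaled counts in mutants and 7.52 to 72.7 in WT; −1.28, adjusted p = 0.114) did not pass. Neither did Dnah7b (40.2 to 62.7 scaled counts in mutants and 28.2 to 43.4 in WT; 0.52, adjusted p = 0.156), which has near-identical copies in Dnah7a and Dnah7c and is uncertain for that reason.

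Of 6 tested dynein assembly factors, which fold and load the arms in the cytoplasm, 1 was lower (16.7%, beside 13.8% of all tested genes). All 6 log2 fold changes lay below 0, with a median of −0.57. This group holds the most abundant motile cilia genes. Dnaaf2 had 1938, 2032, 1861, 1680 and 1920 scaled counts in mutants 1 to 5, against 2026, 2083, 1955, 2043 and 2170 in WT 1 to 5. Per kilobase it was the highest of the 69 in both genotypes (556 in mutants and 606 in WT), and the difference did not pass (log2 fold change −0.13 ± 0.08 SE, adjusted p = 0.264). Dnaaf5 followed at 460 in mutants and 539 in WT per kilobase (log2 fold change −0.24 ± 0.12 SE, adjusted p = 0.161). Both share exon bases with neighbouring transcripts, 1107 of Dnaaf2 with an antisense gene. A further 3 had lower means in mutants and did not pass. They were Dnaaf1 (18.2 to 43.7 scaled counts in mutants and 18.2 to 42 in WT; −0.37, adjusted p = 0.47), Dnaaf3 (0.957 to 34.9 scaled counts in mutants and 30.9 to 74.8 in WT; −1.73, adjusted p = 0.0813) and Zmynd10 (28.5 to 63.2 scaled counts in mutants and 48.5 to 125 in WT; −0.76, adjusted p = 0.0853). Ccdc103, which helps to anchor the arms to the axoneme, was the gene called lower, and it reached the filter only through its WT level. It had 8.49, 15.3, 8.96, 8.085 and 7.6 scaled counts in mutants 1 to 5, against 9.195, 36.2, 56.8, 30.3 and 47.9 in WT 1 to 5, with WT 1 inside the mutant range (log2 fold change −1.62 ± 0.47 SE, adjusted p = 0.0243). Its call was lost on leaving out WT 2, WT 3 or WT 5.

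Radial spokes carry signals from the centre of the axoneme to the arms. Of 5 tested spoke genes, 3 were lower in mutants. Of these, Rsph4a reached the filter only through its WT level. Rsph4a, a protein of the spoke head, had 4.72, 0, 4.48, 0 and 0 scaled counts in mutants 1 to 5, against 22.6, 13.1, 65.9, 115 and 63.8 in WT 1 to 5. Mutants 2, 4 and 5 had no read, and no mutant reached the lowest WT embryo (log2 fold change −4.47 ± 0.74 SE, adjusted p = 0.00146). Rsph1, also of the spoke head, had 18.9, 23, 11.2, 38.4 and 22.8 scaled counts in mutants 1 to 5, against 74.4, 77.5, 70.4, 129 and 97.6 in WT 1 to 5, without overlap (log2 fold change −1.99 ± 0.33 SE, adjusted p = 0.00135). Rsph9 had 6.61, 9.57, 8.96, 25.3 and 2.85 scaled counts in mutants 1 to 5, against 18.4, 22.1, 29.5, 53.55 and 70.4 in WT 1 to 5. It was lower with the library labelled mutant 4 inside the WT range (log2 fold change −1.87 ± 0.54 SE, adjusted p = 0.0239). The call was lost without WT 4, WT 5 or mutant 1. The near-identical copies Rsph3a (0.17, adjusted p = 0.544) and Rsph3b (1.02, adjusted p = 0.331) did not pass and are uncertain for that reason, and Rsph3b ranged from 6.57 to 165 scaled counts within WT.

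The ruler and the nexin-dynein regulatory complex, which space the arms and hold the doublets together, were represented by 3 tested genes, 2 of them lower. Ccdc40, a subunit of the ruler, had 95.3, 39.25, 70.6, 95 and 114 scaled counts in mutants 1 to 5, against 236, 294, 380, 323 and 479 in WT 1 to 5. Every mutant lay below every WT embryo (log2 fold change −2.08 ± 0.29 SE, adjusted p = 0.000491). Its partner Ccdc39 overlapped (14.2 to 62.7 scaled counts in mutants and 27.2 to 77.2 in WT) and did not pass with all embryos (adjusted p = 0.132), while it passed without the library labelled mutant 4 (−1.36, adjusted p = 0.0202). Ccdc39 shares 1256 exon bases with Ttc14 on the opposite strand. Drc1, a core subunit of the regulatory complex, had 14.2, 8.62, 0, 30.3 and 9.5 scaled counts in mutants 1 to 5, against 49.3, 46.3, 114, 101 and 78.9 in WT 1 to 5. The groups did not overlap (log2 fold change −3.10 ± 0.75 SE, adjusted p = 0.0106). Drc7, under the filter, had 0 to 17.2 scaled counts in mutants and 0 to 28.4 in WT, and was not called without a filter (−1.44 ± 0.93 SE, adjusted p = 0.311).

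Of 3 tested genes of the central pair apparatus, which node cilia mostly lack, 2 were lower. Of the 2, Spag6 reached the filter only through its WT level. Spag16 had 26.4, 20.1, 7.84, 11.1 and 9.5 scaled counts in mutants 1 to 5, against 43.5, 30.2, 124, 75.8 and 63.8 in WT 1 to 5, with no overlap (log2 fold change −2.07 ± 0.44 SE, adjusted p = 0.00549). Spag6 had 0, 2.87, 0, 11.1 and 0 scaled counts in mutants 1 to 5, against 14.2, 11.1, 35.2, 24.25 and 19.7 in WT 1 to 5. Mutants 1, 3 and 5 had no read of Spag6, and the library labelled mutant 4 reached the lowest WT value (log2 fold change −3.24 ± 0.73 SE, adjusted p = 0.00777). Hydin was low in both genotypes, at 4.72 to 16.2 scaled counts in mutants and 3.34 to 30 in WT, and did not pass (−0.26, adjusted p = 0.763).

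The tektins, filament proteins inside the doublet wall, were lower in all 3 tested cases, none with overlap. All 3 reached the filter only through their WT level, so the filter bears on this count. Tekt1 had 2.83, 11.5, 10.1, 12.1 and 13.3 scaled counts in mutants 1 to 5, against 41, 68.4, 74.95, 80.8 and 71.35 in WT 1 to 5 (log2 fold change −2.74 ± 0.40 SE, adjusted p = 0.000657). Tekt2 had 3.775, 6.7, 3.36, 14.15 and 5.7 scaled counts in mutants 1 to 5, against 54.3, 47.3, 51.1, 77.8 and 92 in WT 1 to 5 (log2 fold change −3.19 ± 0.39 SE, adjusted p = 0.000225). Both kept some reads in each mutant, with means of 14.8% of WT for Tekt1 and 10.4% for Tekt2, and 396 exon bases of Tekt2 overlap a gene on the opposite strand. Tekt4 had 0, 0, 0, 1.01 and 0 scaled counts in mutants 1 to 5, against 15.05, 38.2, 37.5, 31.3 and 38.5 in WT 1 to 5. Its only mutant read came from the library labelled mutant 4, against 161 reads over the WT embryos. The ratio of WT over mutant was 165 (95% interval 29.2 to 6550, counting error only), and the difference passed (adjusted p = 4.78e-05). Tekt5, a sperm tektin under the filter, had 0 to 6.65 scaled counts in mutants and 1.88 to 7.95 in WT.

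**Figure D3:**
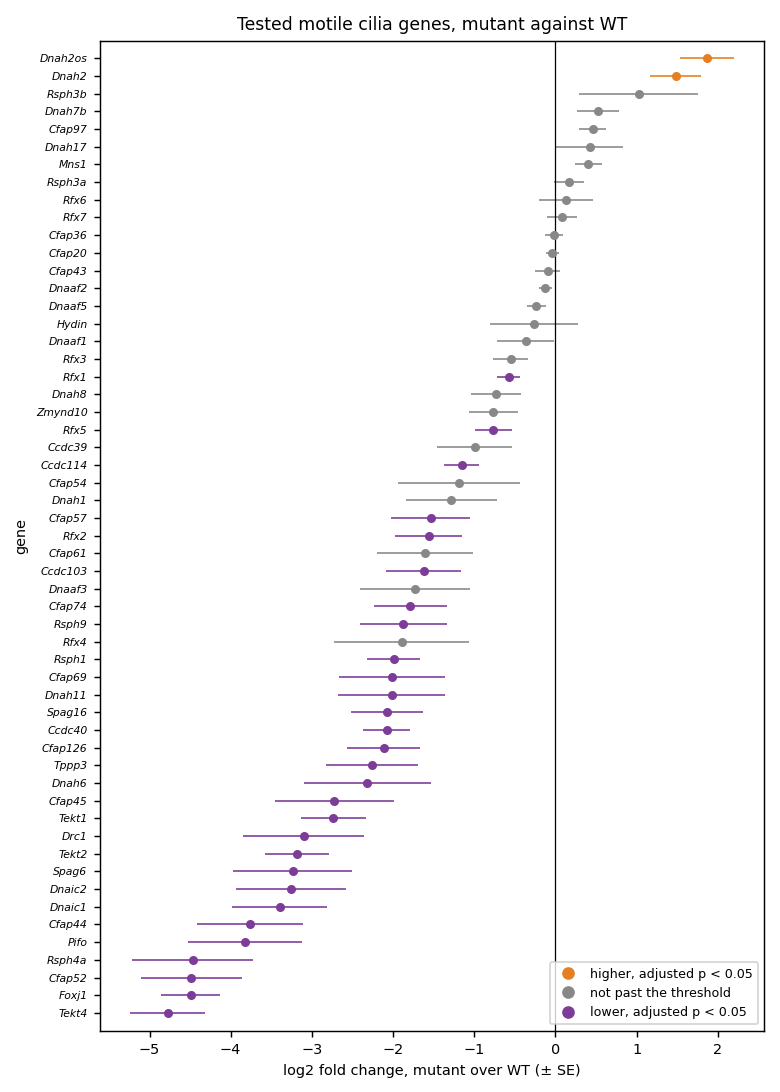
Log2 fold change (mutant over WT, ± SE) of the 55 tested genes, sorted, with 2 genes higher in mutants at the top, 29 lower (purple) and 24 not past the threshold (grey). The values run from 1.87 for Dnah2os to −4.77 for Tekt4, and the grey points crowd around 0 but reach −1.89 for Rfx4.

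Among the Cfap genes, a naming class of mixed axonemal proteins, 7 of 13 tested were lower and none higher. Of the 7, Cfap52, Cfap44, Cfap45 and Cfap126 reached the filter only through their WT level. Cfap52, a protein of the doublet lumen, had 4.72, 0, 0, 4.04 and 0 scaled counts in mutants 1 to 5, against 39.3, 23.15, 40.9, 73.75 and 52.6 in WT 1 to 5, without overlap (log2 fold change −4.49 ± 0.62 SE, adjusted p = 0.000497). Cfap44 had 0, 0, 0, 7.075 and 0 scaled counts in mutants 1 to 5, against 19.2, 10.1, 23.85, 23.2 and 26.3 in WT 1 to 5. The library labelled mutant 4 held every mutant read, and still lay below all WT embryos (log2 fold change −3.76 ± 0.65 SE, adjusted p = 0.00181). Cfap45, which in humans is tied to left-right placement, had 0, 11.5, 12.3, 15.2 and 2.85 scaled counts in mutants 1 to 5, against 25.1, 22.1, 46.6, 47.5 and 92 in WT 1 to 5 (log2 fold change −2.72 ± 0.73 SE, adjusted p = 0.0185), a call that was lost without WT 5. Cfap126, which acts at the basal body, also showed no overlap (3.36 to 18.2 scaled counts in mutants and 25.2 to 64.7 in WT; log2 fold change −2.12 ± 0.45 SE, adjusted p = 0.0054).

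Cfap74 was lower with overlap (12.3 to 90.2 scaled counts in mutants and 75.2 to 184 in WT; log2 fold change −1.78 ± 0.45 SE, adjusted p = 0.014). Cfap57 (2.87 to 17.9 scaled counts in mutants and 16.1 to 37.4 in WT; log2 fold change −1.54 ± 0.49 SE, adjusted p = 0.037) and Cfap69 (2.85 to 35.4 scaled counts in mutants and 15.05 to 70.4 in WT; log2 fold change −2.01 ± 0.66 SE, adjusted p = 0.0415) also passed. The edgeR test and the omission of any 1 of WT 3, WT 4, WT 5 or mutants 2 and 5 took the call from both. It was lost as well without WT 1 or mutant 4 for Cfap57, and without WT 2 or mutant 3 for Cfap69. Cfap20 and Cfap36 were among the 5 genes of the group with the highest WT level per kilobase. Cfap20 stood at 399 in mutants and 409 in WT, and did not pass (log2 fold change −0.04 ± 0.08 SE, adjusted p = 0.758). Cfap36 stood at 188 in mutants and 191 in WT, and did not pass either (log2 fold change −0.02 ± 0.11 SE, adjusted p = 0.912). Cfap43, the partner of Cfap44 in the axoneme, did not pass either, at 325 to 524 scaled counts in mutants and 357 to 522 in WT (−0.10, adjusted p = 0.677). Cfap97 had a higher mean in mutants and did not pass (365 ± 44.6 scaled counts in mutants and 269 ± 58.4 in WT; 0.46, adjusted p = 0.064). Cfap54 (−1.19, adjusted p = 0.269) and Cfap61 (−1.60, adjusted p = 0.0649) did not pass with all embryos. They passed without the library labelled mutant 4 (Cfap54 at −1.80, adjusted p = 0.0445, and Cfap61 at −1.92, adjusted p = 0.0265). Of the Cfap genes under the filter, Cfap70 was not called in the fit without one (−1.50 ± 0.72 SE, adjusted p = 0.168). Cfap46 and Cfap53, named after their values were seen because they were the other genes which that fit added to the calls, were lower (Cfap46 at −2.62 ± 0.65 SE, adjusted p = 0.0136, and Cfap53 at −2.23 ± 0.62 SE, adjusted p = 0.024).

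Pifo, a protein of the ciliary base that is expressed in the node, had 3.775, 3.83, 0, 22.2 and 0.95 scaled counts in mutants 1 to 5, against 52.7, 39.25, 67, 86.9 and 45.1 in WT 1 to 5. It was lower without overlap (log2 fold change −3.82 ± 0.70 SE, adjusted p = 0.00242), and it reached the filter only through its WT level. Tppp3, which promotes tubulin polymerisation, had 17, 10.5, 42.6, 146.5 and 22.8 scaled counts in mutants 1 to 5, against 102, 121, 151, 217 and 189 in WT 1 to 5. The library labelled mutant 4 lay in the WT range, apart from the other mutants (log2 fold change −2.26 ± 0.57 SE, adjusted p = 0.0132), and edgeR did not call Tppp3 (adjusted p = 0.0619). Mns1, which binds the outer arm docking complex, was abundant and had a higher mean in mutants (1113 ± 272 scaled counts in mutants and 824 ± 107 in WT). It did not pass (log2 fold change 0.41 ± 0.17 SE, adjusted p = 0.101), and 2842 of its exon bases are shared with Tex9 on the opposite strand.

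The remaining 7 genes under the filter (Dnah7a, Dnah7c, Dnah10, Lrrc6, Rsph10b, Cfap221 and Rfx8) had 6 to 62 reads summed over the WT embryos, and none was called without a filter.

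Over all 69 genes, the mutant mean was below the WT mean in 58 and above it in 11. The library labelled mutant 4 was the highest mutant in 30 of the 69, against 13, 12, 4 and 10 for mutants 1, 2, 3 and 5, and in 17 of the 29 genes called lower. Among WT embryos, WT 2 was lowest in 29 and WT 1 in 22 of the 69.

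The rest of the ciliary machinery was described with lists that overlap the 69 genes in no member. Of 58 listed further motile cilia genes, 41 were tested. Of these, 18 (43.9%) were lower and none higher, beside 13.8% and 11.4% of all tested genes, with a median of −1.06. Of the 41, 9 reached the filter only through their WT level, 7 of them called lower, and 1 only through its mutant level. Among the 31 with at least 10 scaled counts in both genotypes 11 were lower. The smallest adjusted p-values belonged to Ccdc151, an outer arm docking protein (16.6 ± 7.38 scaled counts in mutants and 107 ± 12.2 in WT; log2 fold change −2.72 ± 0.32 SE, adjusted p = 0.000167), the regulatory complex subunit Ccdc65 (−2.28, adjusted p = 0.00169) and the docking proteins Ttc25 (−1.85, adjusted p = 0.00195) and Armc4 (−3.76, adjusted p = 0.00371). Armc4 had no read in mutants 1, 2, 3 and 5, and 10.1 scaled counts in the library labelled mutant 4, against 8.05 to 42 in WT. Ccdc96 (−1.53, adjusted p = 0.00382) and Enkur, which is needed for left-right placement (−3.46, adjusted p = 0.00441), followed.

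Intraflagellar transport, which builds motile and immotile cilia alike, showed smaller differences. All 30 of its genes were tested. Of these, 11 (36.7%) were lower and none higher, beside 13.8% and 11.4% of all tested genes. The median was −0.39, and no embryo had 0 reads of any of the 30. Ttc21b, of the complex that returns cargo to the cell body, had 207, 233, 233, 376 and 321 scaled counts in mutants 1 to 5, against 517, 417, 819, 706 and 754 in WT 1 to 5 (log2 fold change −1.22 ± 0.22 SE, adjusted p = 0.00231). Ift122 (−0.81, adjusted p = 0.0084) and Wdr35 (−0.82, adjusted p = 0.0106) belong to the same complex, and Ift46 (−0.56, adjusted p = 0.00234), Traf3ip1 (−0.61, adjusted p = 0.00905) and Ift27 (−0.57, adjusted p = 0.0155) to the one that carries cargo outward. The count of 11 depended on single embryos: it was 6 without WT 5, 7 without WT 4 and 7 without mutant 1. In the BBSome, an adaptor for membrane cargo, 1 of 9 was lower (Bbs1, −1.27, adjusted p = 0.0242) and 1 higher (Bbip1, 0.81, adjusted p = 0.00401). Each is 11.1% of the 9, near the shares of all tested genes.

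**Figure D4:**
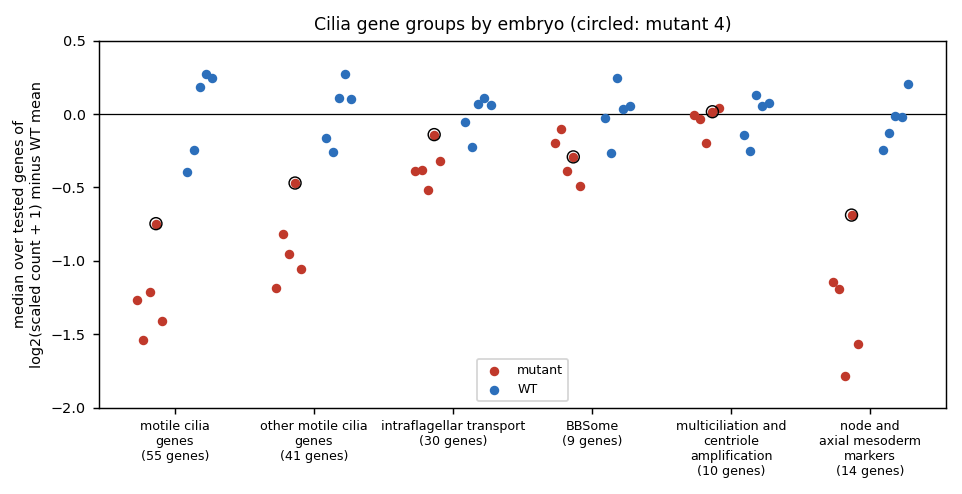
Median over the tested genes of each ciliary list of log2(scaled count + 1) minus the WT mean, 1 point per embryo, mutants left and WT right in each list, with the library labelled mutant 4 circled. For the motile cilia genes the mutants lie between −1.54 and −0.75 and the WT embryos between −0.39 and 0.27. In the multiciliation list the groups overlap around 0.

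Genes of multiciliation and centriole amplification, a programme of cells that bear many cilia, divided. Of 10 tested, 4 (40%) were lower and 1 (10%) higher, beside 13.8% and 11.4% of all tested genes, with a median of −0.01. Of the 4, 2 had reached the filter only through their WT level. The regulators Ccno (5.44 ± 5.48 scaled counts in mutants and 100 ± 41.9 in WT; log2 fold change −4.37 ± 0.61 SE, adjusted p = 0.000499), Trp73 (4.63 ± 5.605 scaled counts in mutants and 82.6 ± 38.6 in WT; log2 fold change −4.52 ± 0.72 SE, adjusted p = 0.00118) and Myb (71 ± 35.2 scaled counts in mutants and 230 ± 50.6 in WT; −1.84, adjusted p = 0.00408) were lower, as was the centriole gene Cep152 (−0.68, adjusted p = 0.00669), while Cep63 was higher (0.33, adjusted p = 0.0197). The general centriole gene Plk4 did not pass (0.28, adjusted p = 0.279). Gmnc, which heads the programme, had 0 reads in mutants and 21 in WT, 16 of them in WT 5.

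Markers of the tissue that carries motile cilia at this stage were lower in part. Of all tested genes, 13.8% were called lower and 11.4% higher. Of 14 tested node and axial mesoderm markers, 8 (57.1%) were lower, 6 were not called and none was higher (median −1.66). Of the 14, 1 (Pkd1l1) reached the filter only through its WT level and was called lower. Among the 13 with at least 10 scaled counts in both genotypes 7 were lower. The summed level of the listed markers was 5069 in the library labelled mutant 4 and up to 7507 scaled counts in the other mutants, against 8637 to 10310 in WT. Cdx2, also a trophoblast and posterior gene, made up much of these sums (3007 ± 1052 scaled counts in mutants and 1953 ± 417.5 in WT; 0.56, adjusted p = 0.122). Without Cdx2 the sums were 2803 to 3635 in mutants, highest in the library labelled mutant 4, and 6673 to 7780 in WT. Noto, the homeobox factor that acts upstream of Foxj1 in the mouse node, had 9.44, 0, 0, 113 and 0 scaled counts in mutants 1 to 5, against 206, 129, 225, 221 and 218 in WT 1 to 5 (log2 fold change −5.58 ± 1.13 SE, adjusted p = 0.00441). The call was lost with edgeR (log2 fold change −3.03, adjusted p = 0.073) and with DESeq2 (−3.02, adjusted p = 0.165). Mutants 2, 3 and 5 had no read, and the library labelled mutant 4 came closest to WT, as it did for 17 of the 29 motile cilia genes called lower. Pkd1l1, a sensor of nodal flow, had 0, 0, 0, 4.04 and 1.9 scaled counts in mutants 1 to 5, against 41.8, 49.3, 90.8, 36.4 and 82.6 in WT 1 to 5 (log2 fold change −5.07 ± 0.56 SE, adjusted p = 0.000108). Chrd (−2.44, adjusted p = 0.000188), T (−1.62, adjusted p = 0.000196), Pkd2 (−1.15, adjusted p = 0.001) and Sox9 (−2.48, adjusted p = 0.00164) were lower too, while Foxa2, which also marks endoderm, did not pass (504 ± 68.1 scaled counts in mutants and 628 ± 110 in WT; −0.31, adjusted p = 0.129). Named after their values were seen, Nodal (−1.70, adjusted p = 0.108), Bicc1 (0.12, adjusted p = 0.57), Nog (−0.15, adjusted p = 0.656) and Dand5 (−0.38, adjusted p = 0.567) did not pass either. The part of a changed amount of node tissue in the cilia values was not tested.

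Other tissues in the libraries also varied. Summed over 10 listed genes, visceral endoderm markers came to 89250 scaled counts in the library labelled mutant 4 and 152000 to 160500 in the other mutants, against 104100 to 144700 in WT. Of the 10, 3 were higher in mutants (30%, beside 11.4% of all tested genes). They were Slc2a2 (0.75, adjusted p = 0.00752), Cubn (0.60, adjusted p = 0.0255) and Hnf4a (0.56, adjusted p = 0.03). Trophoblast markers summed to 59450 in the library labelled mutant 4 and to 14440 to 19150 in the other mutants, against 16560 to 22460 in WT. Of these 10, 1 was lower (10%, beside 13.8% of all tested genes). It was Sox2, also an epiblast gene (−0.53, adjusted p = 0.0365). Maternal decidua markers summed to 13710 in mutant 3, 4437 in the library labelled mutant 4 and 985 to 1815 in the other mutants, against 626 to 1014 in WT. Of 9 tested, 2 were higher (22.2%, beside 11.4% of all tested genes). They were Prl8a2 (4.03, adjusted p = 0.00681) and Prl3c1 (3.75, adjusted p = 0.013). Of the 9, 2 reached the filter only through their mutant level, 1 of them called higher. Among the 7 with at least 10 scaled counts in both genotypes 1 was higher. The part of these tissues in the cilia values was not tested. Without mutant 3, 27 motile cilia genes were lower, and without the library labelled mutant 4, 29.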

How the data were processed

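Total RNA of single embryos was amplified with the SMART-Seq v4 kit for 12 cycles and made into libraries with a KAPA kit, per the labels' protocols. Per the submitters' processing notes, cutadapt 1.6, STAR 2.5.0a, HTSeq 0.5.3 and DESeq were used with build mm10. The deposited values are a signal: counts of reads, scaled by the authors with DESeq size factors (0.881 to 1.20). For 20006 of 20006 genes the values were whole multiples of 1 read within 0.01 reads, which gave back the reads used by edgeR 4.0.16 and DESeq2 1.42.0 as alternatives: edgeR called 3596 genes and DESeq2 4533. Log2(scaled count + 1) was fitted with limma 3.58.1 in R 4.3.3 (trend on mean level, genotype only, mean of at least 10 over 10 embryos, Benjamini-Hochberg over 15429 genes, threshold 0.05), calling 3877. Exact permutation tests are two-sided. A floor of 3 reads equals 2.51 to 3.41 scaled counts per embryo. Coordinates and exon lengths come from GENCODE M21 (GRCm38), in which 19935 genes were found, and promoters from RefSeq genes that match by name and overlap the annotated gene. Without molecular identifiers, intervals cover counting error only.

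The members, the lists and the tests were chosen with earlier results of these data known. Genes are named when they are members past the threshold, Foxj1 or tested Rfx genes, the 5 members highest per kilobase in WT, the 4 members under the filter with most reads in 1 genotype (WT for all 4), the 6 smallest adjusted p-values of each other list, or Noto and Pkd1l1. Any further gene was named after its values were seen.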

Additional observations from a re-analysis of the deposited data

Results flagged for a closer look

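In 70 groups of 5 embryos (35 motile cilia genes, either called or of the Rfx family, in each genotype), the gap between 1 embryo and the nearest of the others was large for the range of its group in 10. Chance flags about 1 group in 20 where values are normally distributed. Groups with few reads, or with 0 in most embryos, need not keep to that rate, so the 10 are not read against it. Of the 10, 8 were high values of the library labelled mutant 4: Cfap44 at 7.075 scaled counts (0 in the other mutants), Spag6 at 11.12 (0 to 2.87 in the others), Dnaic2 at 13.14 (0 to 3.36), Pifo at 22.23 (0 to 3.83), Tppp3 at 146.5 (10.5 to 42.6), Tekt4 at 1.011 (1 read, against 0), Rfx2 at 58.62 (12.3 to 21.3) and Rfx7 at 1065 (638 to 740). The same library held the highest Noto level among the mutants. The others were Ccdc103 in mutant 2 at 15.32 (7.60 to 8.96 in the other mutants) and Dnah2os in mutant 3 at 117.6 (68.0 to 81.4).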

How the results depend on the processing

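Of the 31 called motile cilia genes, 22 kept their call in every one of up to 20 alternatives and none changed direction. Those that lost it were Dnah6, Dnah11, Cfap57, Cfap69 and Rfx5 (each in 7 or more), Ccdc103 and Rsph9 (3 each), and Cfap45 and Tppp3 (1 each). Foxj1 passed in all, between −4.80 and −4.21. The count of lower genes, 29, was 24 with edgeR, 32 with DESeq2, 32 without a filter, and 15 with a filter at a mean of 30, which tests fewer genes. That filter gave a median log2 fold change of −0.77 (−1.56 with the filter at 10) and 10 lower further motile cilia genes (18), and a pseudocount of 5 gave a median of −1.22. Leaving out 1 embryo gave 21 (without WT 5) to 29 lower and 2 to 3 higher motile cilia genes, medians of −1.77 to −1.21 (−1.21 without mutant 2), 12 to 19 further motile cilia genes, 6 to 11 intraflagellar transport genes and 2505 (without WT 5) to 4535 (without the library labelled mutant 4) genes in all. Deviations of same-numbered embryos from their group means correlated at −0.08 to 0.08, so replicate numbers showed no sign of pairing. Such values cannot tell whether embryos shared a litter, which is not given. With a replicate block the counts were 28 lower and 2 higher motile cilia genes (Dnah11 and Rfx5 lost, Cfap61 gained), 17 further motile cilia genes, 8 intraflagellar transport genes and 3253 genes in all, and Foxj1 passed at an adjusted p of 0.000436. With few or no reads in mutants, the size of the change of Tekt4, Dnah5, Cfap44 and Dnaic1 is bounded by depth.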

Other observations

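Several motile cilia genes lie on the chromosomes of the mutated genes. Tekt4 is 0.662 Mb from Axin1 on chromosome 17, and Dnaic2, Ccdc103 and Foxj1 are 5.78, 6.04 and 7.38 Mb from Axin2 on chromosome 11 (GRCm38). On chromosomes 11 and 17 together, 10 of 17 tested motile cilia genes were lower and 2 higher (Dnah2 and Dnah2os), beside 15.5% and 10.9% of all tested genes there. On the other chromosomes, 19 of 38 were lower and none higher, beside 13.5% and 11.5%. Foxn4, a forkhead gene of the multiciliation list under the filter, had 0 to 7.075 scaled counts in mutants and 10.1 to 22.6 in WT and, named after its values were seen, was lower in the fit without a filter (−3.46 ± 0.62 SE, adjusted p = 0.00221).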
